A study of Danio rerio with 6 samples.

Results

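Of the 35218 features counted in these zebrafish embryos, 9 were taken here: genes that build glycosaminoglycans, namely chsy3, chsy1, xylt1, ext1a, ext1b, ext2, extl3, ugdh and has2. chsy3 was chosen by its read counts, which differed strongly between the injected groups, so its values in that comparison are a description and carry no test. The other 8 were picked as enzymes of the same pathway, with earlier results of these data known. Each member was found among the 32099 Ensembl rows by its symbol, except that 2 rows carry the shared name EXT1, and which of them is ext1a and which is ext1b is not given in the tables used here. They are therefore called EXT1 (ENSDARG00000101019) and EXT1 (ENSDARG00000103155). All 9 members passed the filter on low counts.

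Fertilized zygotes of the wild-type Tuebingen strain were injected with 4.5 ng of 1 of 2 morpholino oligonucleotides (MOs), synthetic antisense molecules that can block translation. The FZNF MO was designed to block translation of many FiNZ zinc finger genes (FZNFs), and the scrambled MO, the control, is a mixture of randomized sequences. Whole embryos were pooled per library at shield stage, 6 h after fertilization and early in gastrulation, in 3 pairs of injections, and poly(A) RNA was sequenced. Pairs 1 and 2 were collected on 1 day and pair 3 on a later day, and each pair gave 1 FZNF MO and 1 scrambled MO library, with 16306069 to 20567549 counts per library. No protein was measured, the libraries say nothing on which embryonic cells carry a transcript, and in whole embryos fewer cells of a type and less RNA per cell cannot be told apart.

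Markers of the labelled stage were present. All 10 genes of the shield-stage margin and organizer (among them gsc, chrd, noto and tbxta) had counts in every library, with summed levels of 1655 to 2110 CPM (counts per 1000000 counts, with library sizes adjusted by TMM, a scaling method) in scrambled MO and 1751 to 2834 CPM in FZNF MO libraries. The 9 markers of the enveloping layer, the outer epithelium of the embryo, summed to 12430 to 14282 CPM and 12582 to 14202 CPM. The 6 markers of the yolk syncytial layer summed to 279 to 445 CPM and 294 to 433 CPM, and the 6 of primordial germ cells to 218 to 278 CPM and 222 to 273 CPM. The 6 markers of later cell types that could be matched summed to 0.961 to 2.65 CPM over all libraries. Of these, the globin gene hbae3 was at 0 in each library, while ckma had counts in every library, at 0.12 to 2.32 CPM. Of the margin and organizer list, gata5 and vent were called higher with the FZNF MO, and of the germ cell list dazl was called lower. The part of these markers in the results below was not tested.

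Glycosaminoglycans are long sugar chains of repeated disaccharides. Chondroitin and heparan sulfate grow on core proteins: xylosyltransferase adds the first sugar of a short linker, after which chondroitin polymerases such as Chsy1 and Chsy3, or the heparan polymerase of Ext1 and Ext2, extend the chain, and sulfotransferases then modify it. Extl3 adds the first sugar that commits a linker to heparan sulfate. Hyaluronan is made without a core protein, at the plasma membrane, by enzymes such as Has2. Ugdh makes UDP-glucuronic acid, a building block of all of these chains. In zebrafish, has2 is known for a role in convergence movements of the gastrula, ugdh is the gene of the jekyll heart valve mutant, and ext2 and extl3 are those of dackel and boxer, mutants with defects of axon sorting and fins.

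chsy3, a chondroitin synthase (ENSDARG00000069472), was the member chosen by its counts. It had 17, 18 and 51 counts in scrambled MO replicates 1, 2 and 3, and 752, 327 and 244 counts in FZNF MO replicates 1, 2 and 3. After normalization for library size these were 0.975, 0.946 and 2.92 CPM with the scrambled MO, and 36.3, 20.4 and 14.6 CPM with the FZNF MO. Every FZNF MO library was above every scrambled MO library, and the groups did not overlap.

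The chsy3 level was 1.61 ± 1.13 CPM with the scrambled MO and 23.8 ± 11.2 CPM with the FZNF MO (SD, n = 3 each), with a fitted log2 fold change of 3.88 (SE 0.45). The ratio of CPM was 37.2 in pair 1, 21.6 in pair 2 and 5.01 in pair 3. Pair 3, collected later, thus had the smallest ratio. It had both the highest of the 3 control levels and the lowest of the 3 FZNF MO levels. As a measure of counting error only, exact 95% Poisson intervals ran from 0.568 to 1.56 CPM in scrambled MO replicate 1 and from 2.18 to 3.84 CPM in replicate 3. Ordered by log2 fold change, chsy3 was number 13 of 15309 tested Ensembl genes, which restates how it was picked.

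**Figure D1:**
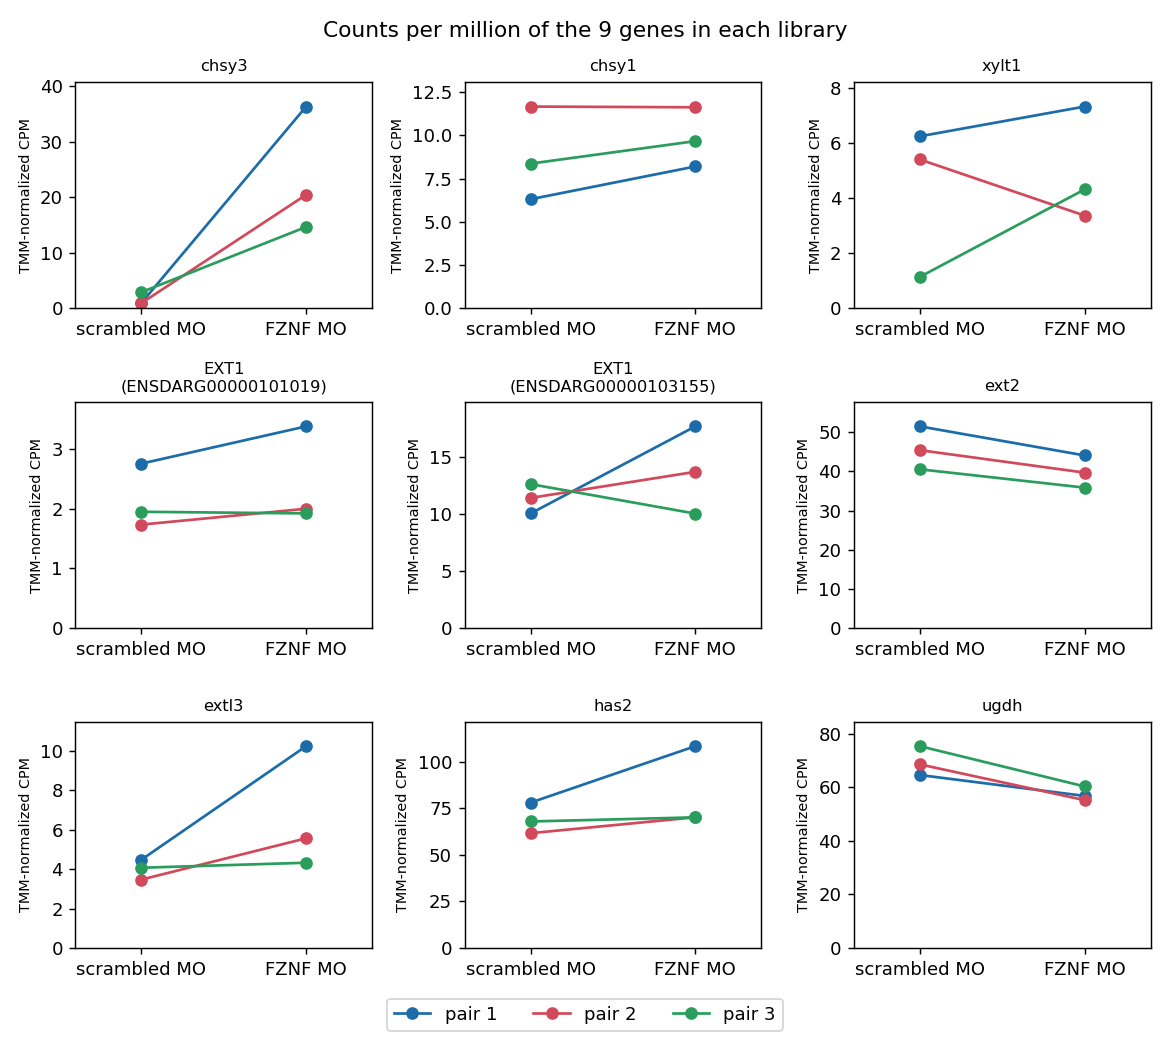
TMM-normalized CPM of the 9 genes in the scrambled MO and FZNF MO libraries, with 1 line for each pair and a scale of its own for each gene, starting at 0. For chsy3 the FZNF MO points lie between 14.6 and 36.3 CPM, above all scrambled MO points, while the ranges of 7 of the other genes overlap.

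chsy1 (ENSDARG00000079027), the other chondroitin polymerase among the members, had closer levels in the 2 groups. Its levels were 6.31, 11.7 and 8.37 CPM in scrambled MO replicates 1 to 3 and 8.20, 11.6 and 9.67 CPM in FZNF MO replicates 1 to 3. The groups overlapped, and pair 2 had nearly equal levels. The log2 fold change of chsy1 was 0.19 (95% interval -0.32 to 0.70), with an adjusted p of 0.714 by edgeR, that is, its quasi-likelihood test with Benjamini-Hochberg correction over all 17804 tested features.

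Of the reads counted on chsy3 or chsy1, chsy3 took 13.4%, 7.5% and 25.9% in scrambled MO replicates 1 to 3. It took 81.6%, 63.7% and 60.2% in FZNF MO replicates 1 to 3. Exact 95% binomial intervals, which cover counting error only, were 19.9% to 32.6% in scrambled MO replicate 3 and 55.3% to 65.0% in FZNF MO replicate 3. Since chsy3 was chosen by these counts, the shares describe the libraries and support no difference between the groups. The share can be set against other libraries but not read as the ratio of transcripts, since counts are not per length of the gene.

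xylt1 (ENSDARG00000061248), the xylosyltransferase that begins the linker, had ratios on both sides of 1. It had 6.25, 5.41 and 1.15 CPM in scrambled MO replicates 1 to 3, and 7.33, 3.37 and 4.32 CPM in FZNF MO replicates 1 to 3. Its CPM ratio was 1.17 in pair 1, 0.623 in pair 2 and 3.77 in pair 3, so the direction changed between pairs. The high ratio of pair 3 goes with the lowest of the control levels, 20 counts in scrambled MO replicate 3 against 109 and 103 in the other two. The log2 fold change was 0.41 (95% interval -0.56 to 1.38, adjusted p = 0.672 by edgeR), and it was -0.19 without replicate 3.

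Among the 4 heparan sulfate genes of the 9 members, extl3 (ENSDARG00000026811) had the largest fitted difference. Its levels were 4.47, 3.47 and 4.07 CPM with the scrambled MO and 10.2, 5.56 and 4.32 CPM with the FZNF MO, in replicates 1 to 3. The ratio was 2.29, 1.60 and 1.06 in pairs 1, 2 and 3, above 1 in 3 of 3 pairs, with the lowest FZNF MO library inside the range of the controls. The log2 fold change was 0.66 (95% interval -0.03 to 1.36, adjusted p = 0.280 by edgeR), and the gene was not called.

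ext2 (ENSDARG00000056648), a subunit of the heparan polymerase, had 51.5, 45.4 and 40.5 CPM with the scrambled MO and 44.0, 39.7 and 35.8 CPM with the FZNF MO. It was lower in 3 of 3 pairs, as were 22.8% of all tested Ensembl genes. The difference within pairs was small and steady, with CPM ratios of 0.856, 0.874 and 0.885, while the groups overlapped. Its log2 fold change was -0.20 (95% interval -0.50 to 0.10, adjusted p = 0.464 by edgeR).

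The EXT1 rows encode the partner subunit. EXT1 (ENSDARG00000103155) had 10.0, 11.4 and 12.6 CPM with the scrambled MO and 17.7, 13.7 and 10.0 CPM with the FZNF MO. Its ratio was 1.76 and 1.20 in pairs 1 and 2 and 0.795 in pair 3, and the log2 fold change was 0.25 (95% interval -0.29 to 0.80, adjusted p = 0.632 by edgeR). EXT1 (ENSDARG00000101019) had the lowest counts of the heparan genes among the members, 33 to 48 with the scrambled MO and 32 to 70 with the FZNF MO, and a log2 fold change of 0.16 (95% interval -0.79 to 1.11). Neither row was called. Counting was done in TEcount's multimapper mode, and how far reads matching both copies enter each row was not tested, so each row is uncertain by itself.

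has2 (ENSDARG00000036987), the hyaluronan synthase, had 78.0, 61.6 and 67.9 CPM with the scrambled MO and 108, 70.2 and 70.1 CPM with the FZNF MO. It was above its paired control in 3 of 3 pairs, as were 19.6% of all tested Ensembl genes, but in pair 3 by a ratio of only 1.03, and the groups overlapped. Its log2 fold change was 0.24 (95% interval -0.04 to 0.52, adjusted p = 0.341 by edgeR). The other hyaluronan synthase genes, has1 and has3, did not pass the filter on low counts: has1 was at 0 in all 6 libraries, and has3 reached at most 0.36 CPM.

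FZNF MO replicate 1 held the highest of the 6 levels for chsy3, xylt1, extl3, has2 and both EXT1 rows. The same library had the highest summed level of the margin and organizer markers, 2834 CPM against 1655 to 2110 CPM in the other libraries, and the part of these markers was not tested. Without replicate 1 the log2 fold change was 3.27 for chsy3, 0.53 for xylt1, 0.39 for extl3, 0.12 for has2, 0.093 for EXT1 (ENSDARG00000101019) and -0.031 for EXT1 (ENSDARG00000103155), lower than with all pairs except for xylt1.

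ugdh (ENSDARG00000019838), which supplies UDP-glucuronic acid, had 64.5, 68.5 and 75.3 CPM with the scrambled MO and 56.7, 55.2 and 60.3 CPM with the FZNF MO. Here every FZNF MO library was below every scrambled MO library, with ratios of 0.879, 0.805 and 0.801. The log2 fold change was -0.27 (95% interval -0.54 to -0.0013), and the gene was not called (unadjusted p = 0.0491 and adjusted p = 0.252 by edgeR). It was the 1 member besides chsy3 whose groups did not overlap, as was the case for 16.6% of all tested Ensembl genes in either direction, 7.51% with the FZNF MO libraries higher and 9.08% with them lower.

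**Figure D2:**
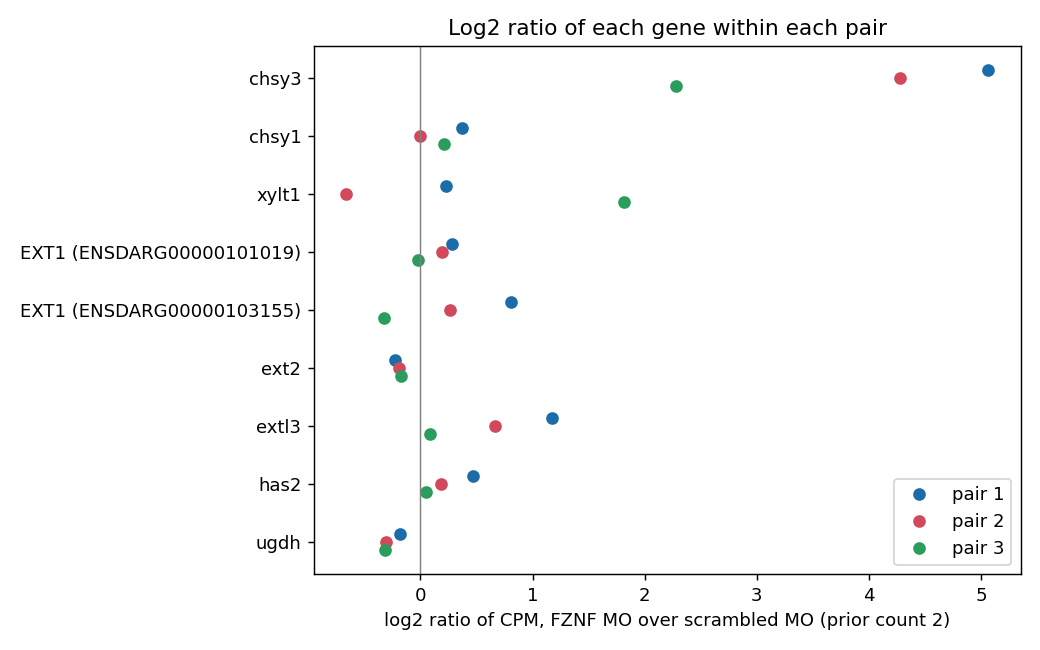
Log2 ratio of CPM (prior count 2) of FZNF MO over scrambled MO for the 9 genes, with 1 point per pair and the line at 0 marking no difference. chsy3 lies at 5.07, 4.28 and 2.28 in pairs 1, 2 and 3, ext2 and ugdh lie just below 0 in all pairs, and xylt1 spreads from -0.66 to 1.82.

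Set side by side within pairs, the log2 ratio of chsy3 exceeded that of each other member in 3 of 3 pairs. This restates how chsy3 was picked. Over chsy1 the excess was 4.69, 4.29 and 2.08 in pairs 1, 2 and 3, and over has2 it was 4.59, 4.09 and 2.24. The smallest excess was over xylt1 in pair 3, at 0.46. With chsy3 left out, the median log2 fold change of the 8 other members was 0.21, against -0.02 for all 15309 tested Ensembl genes. Of these members 6 were above 0 and 2 below, beside 7322 above and 7987 below over all tested Ensembl genes. The median log2 ratio of the 8 was 0.33, 0.09 and 0.01 in pairs 1, 2 and 3, so it was near 0 in pair 3. A gene was called when its adjusted p was under 0.05 and its log2 fold change was 0.32 or more in either direction. In the fit 1 member was called higher (chsy3, picked for this comparison) and 0 lower, where 2.38% of all tested Ensembl genes were called higher and 2.28% lower, 4.66% in all. DESeq2 gave the same counts of 1 and 0. Among the other 8 members 1 was lower and 0 higher at an unadjusted p under 0.05 by edgeR, as were 9.89% and 9.26% of all tested Ensembl genes. These counts are given as a description, and an uncalled gene is not shown to be unchanged.

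The nearest tested genes around chsy3, among protein-coding genes whose RefSeq name matched a single Ensembl row, were not called. Features without such a match were skipped and may lie nearer. By gene order in the RefSeq table of the assembly GRCz12tu (not the build of the counts, so no coordinates are given), those on each side are isoc1 and slc27a6, and stoml2 and cimip2b. Their log2 fold changes were 0.06 (SE 0.28), -0.53 (SE 0.37), -0.09 (SE 0.27) and -0.07 (SE 0.72), with adjusted p from 0.469 to 0.972 by edgeR, and none was called. In that assembly 1 other annotated gene, LOC110440067, overlaps chsy3, and whether its reads entered the chsy3 count was not tested. The same holds for chsy1, overlapped by LOC141375294 and LOC141375296, and for extl3, overlapped by LOC101885653. Around the other 6 members with a RefSeq entry of their own name, 4 tested neighbours each were read in the same way. Of these, adap2, near xylt1, was called higher (log2 fold change 1.67, SE 0.27), and rps13, a ribosomal protein gene near ext2, was called lower (-0.46, SE 0.11). Over all tested Ensembl genes 4.66% were called in either direction, and nothing local to xylt1 or ext2 is read from these calls.

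**Figure D3:**
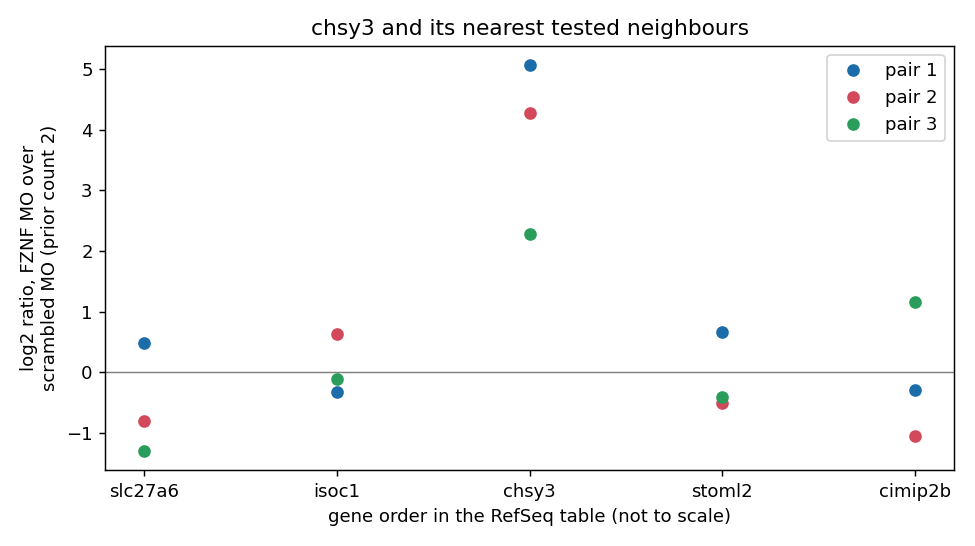
Log2 ratio of CPM (prior count 2) of FZNF MO over scrambled MO within each pair for chsy3 and the 4 nearest tested protein-coding genes matched by name, in gene order and not to scale. chsy3 lies at 2.28 or above in all pairs, and each neighbour has points on both sides of 0.

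The rest of the pathway was read through a list of 131 further symbols, of which 121 rows could be matched and 82 passed the filter on low counts. edgeR called 2 of the 82 higher and 4 lower, beside 2.38% and 2.28% of all tested Ensembl genes, and the median log2 fold change was -0.03. At an unadjusted p under 0.05, 9 of the 82 were higher and 7 lower, beside 9.26% and 9.89% of all tested Ensembl genes. DESeq2, which gave an adjusted p to 68 genes of the list, called 5 higher and 5 lower, beside 3.71% and 3.52% of all Ensembl genes with an adjusted p. These counts are a description, and nothing particular to the pathway is read from them. By edgeR, 1 of the 19 tested genes that supply precursors was called higher and 4 lower, and 1 of the 16 of the heparan chain higher. None of the 6 calls was kept in the fit with no replicate block or without replicate 2.

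Both transporters that carry the sulfate donor PAPS into the Golgi fell. slc35b2, the gene of the zebrafish mutant pinscher, had 14.6, 13.3 and 13.8 CPM with the scrambled MO and 4.97, 7.12 and 4.98 CPM with the FZNF MO in replicates 1 to 3. The groups did not overlap, and the fitted log2 fold change was -1.31 with SE 0.25 (adjusted p = 0.0100 by edgeR). slc35b3 had 5.22, 7.99 and 7.39 CPM with the scrambled MO and 2.41, 3.69 and 2.88 CPM with the FZNF MO, again without overlap, with -1.19 on the log2 scale and SE 0.30 (adjusted p = 0.0429 by edgeR). The 3 tested rows named after PAPS synthases, given after their values were seen, were not called. Their log2 fold changes were 0.79 with SE 0.22 for papss1, 0.12 with SE 0.13 for PAPSS2 (ENSDARG00000056600) and 0.30 with SE 0.55 for PAPSS2 (ENSDARG00000071021), at adjusted p of 0.0638, 0.666 and 0.818 by edgeR. The groups of papss1 did not overlap either, in the other direction from the transporters. It had 12.3, 12.6 and 13.5 CPM with the scrambled MO and 32.3, 18.4 and 18.2 CPM with the FZNF MO.

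Among the genes for nucleotide sugars, uap1l1, related to the enzyme that makes UDP-N-acetylglucosamine, fell from 20.2 ± 3.55 to 10.5 ± 2.50 CPM (SD, n = 3 each). Its log2 fold change was -0.94, with SE 0.20 (adjusted p = 0.0168 by edgeR). gale, the epimerase that interconverts UDP-glucose and UDP-galactose, fell by 0.74 on the log2 scale with SE 0.18 (adjusted p = 0.0331 by edgeR), lower in 3 of 3 pairs although the groups overlapped, with 32.4 to 52.7 CPM in controls and 13.7 to 38.4 CPM with the FZNF MO. UGP2 (ENSDARG00000008200), named after the enzyme that makes UDP-glucose, the substrate of Ugdh, rose. It had 14.0, 5.15 and 8.54 CPM with the scrambled MO and 31.0, 13.4 and 16.6 CPM with the FZNF MO, higher in 3 of 3 pairs though the groups overlapped. Its log2 fold change was 1.16, with SE 0.20 (adjusted p = 0.00704 by edgeR).

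The sixth call was on heparan sulfate. NDST2 (ENSDARG00000060678), named after an N-deacetylase/N-sulfotransferase that modifies the growing chain, had 1.84, 1.1 and 0.860 CPM with the scrambled MO and 7.33, 4.31 and 3.90 CPM with the FZNF MO. The groups did not overlap, and the log2 fold change was 2.04, with SE 0.38 (adjusted p = 0.00977 by edgeR). It was the 1 called gene of 16 tested in that sublist. In the fit with no replicate block 0 of the 6 were called (adjusted p from 0.0725 to 0.547 by edgeR). Without replicate 2, 0 of the 6 were called (adjusted p from 0.0757 to 0.444 by edgeR). The loss was not particular to these genes. Over all tested Ensembl genes, 365 higher and 349 lower became 34 and 23 with no block, and 43 and 23 without replicate 2. Without replicate 1 or replicate 3, 5 of 6 were still called, the exception being slc35b3, with adjusted p = 0.0731 and 0.0811.

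In the remaining sublists edgeR called 0 genes, with 2 higher and 1 lower at an unadjusted p under 0.05, where all tested Ensembl genes had the shares of 9.26% and 9.89% given above. Among the 6 tested linker genes fam20b, the xylose kinase, had a log2 fold change of -0.80 (SE 0.45), and pxylp1, the phosphatase that removes that phosphate, 0.68 (SE 0.56). Of 11 tested chondroitin and dermatan genes, 1 was below an unadjusted p of 0.05, CHPF (ENSDARG00000078392), named after the partner of the chondroitin polymerases. It had 0.918, 2.10 and 1.26 CPM with the scrambled MO and 7.91, 5.44 and 1.80 CPM with the FZNF MO, with overlapping groups, and differed by 1.66 on the log2 scale with SE 0.50 (adjusted p = 0.0807 by edgeR). That gene was called by DESeq2 (adjusted p = 0.0388). The chondroitin sulfotransferase row CHST3 (ENSDARG00000061070) had a log2 fold change of -1.85 (SE 0.95) on at most 1.05 CPM.

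All 6 tested genes of the hyaluronan list, has2 aside, had log2 fold changes below 0, as had 7987 of 15309 tested Ensembl genes. They ran from -0.69 for hyal1 (SE 0.77) to -0.11 for stab2 (SE 0.40). None of the 6 was called, and 1 of them was below an unadjusted p of 0.05 by edgeR. This was cd44a, a receptor for hyaluronan, at 89.4 ± 16.0 CPM with the scrambled MO and 72.5 ± 8.59 CPM with the FZNF MO (SD, n = 3 each). Its log2 fold change was -0.29, with SE 0.12 (adjusted p = 0.206 by edgeR). The hyaluronidase row HYAL2 (ENSDARG00000062997) followed with -0.32 (SE 0.15). Of 10 tested core protein genes, hspg2, which encodes perlecan, had the smallest p, at 0.68 on the log2 scale with SE 0.30 (adjusted p = 0.239 by edgeR), followed by NCAN (ENSDARG00000005783), named after neurocan, with 1.62 (SE 0.78). Of 14 genes of lysosomal breakdown, hexb, a hexosaminidase subunit, had -0.44 (SE 0.21) and gnsb, a sulfatase, 0.30 (SE 0.17).

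**Figure D4:**
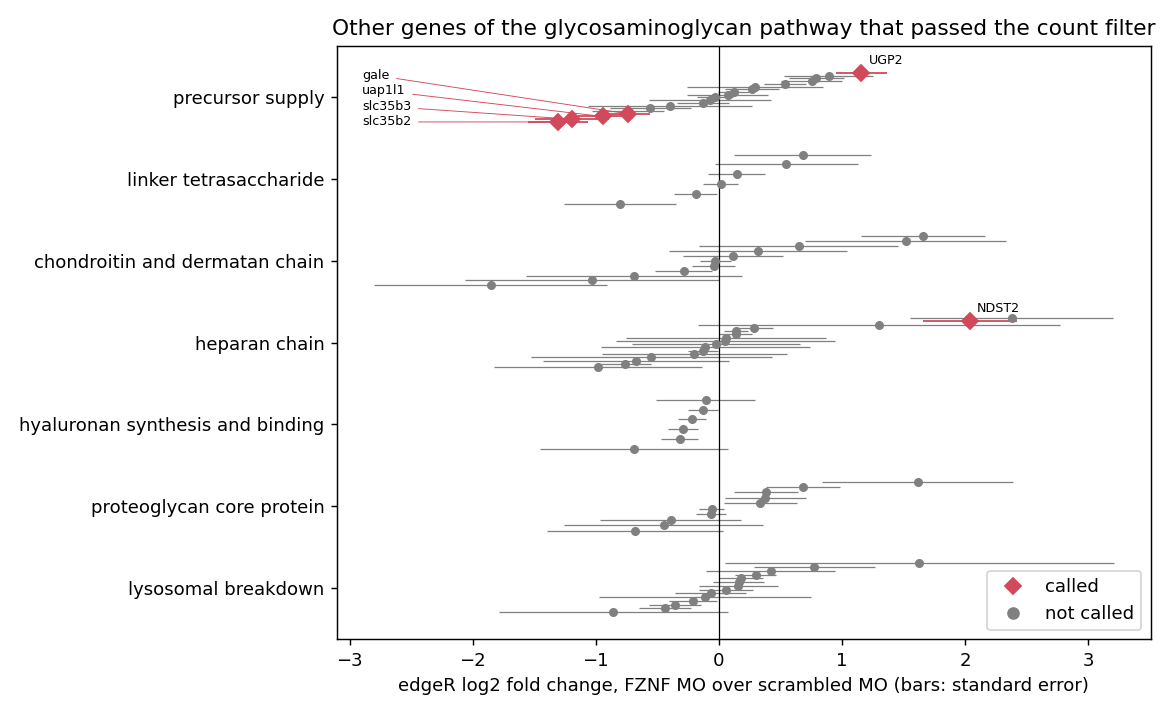
edgeR log2 fold change, FZNF MO over scrambled MO, with standard errors, for the 82 tested genes of the pathway list by sublist, the 9 members left out. The 6 red diamonds are the called genes: slc35b2, slc35b3, uap1l1 and gale to the left of 0, and UGP2 and NDST2 to the right.

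The 5 features whose levels over the 6 libraries were most like those of chsy3 held no glycosaminoglycan gene. Few of the features compared belong to that pathway, so nothing about it is read from this. Among 12800 other tested features with a mean count of at least 50, Pearson's r of log2 CPM was highest for the FZNF g280 (r = 0.995), the internal part of the LTR retrotransposon Gypsy-25-I_DR (0.995), the corepressor gene ctbp1 (0.993), cnih1 (0.993) and PTBP1 (ENSDARG00000031907, 0.993). The 6 points are the same paired libraries in 2 groups, so r is a description. g280 was at 0.918, 0.946 and 2.46 CPM in scrambled MO replicates 1 to 3 and at 82.3, 38.4 and 33.4 CPM in FZNF MO replicates 1 to 3, the same order of libraries as chsy3 in the FZNF MO group. ctbp1 was at 292 to 318 CPM with the scrambled MO and 363 to 397 CPM with the FZNF MO, a log2 fold change of 0.32 against 5.08 for g280, so r does not carry the size of the difference. Among the members the highest r with chsy3 was that of extl3 (0.760) and the lowest that of ugdh (-0.765).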

How the data were processed

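Strand-specific poly(A) libraries were sequenced. After quality control (FastQC 0.11.9) the authors aligned reads to GRCz11 with STAR 2.7.5a, keeping multimappers, and ran TEcount against Ensembl genes, FZNF models and repeats. The values they deposited are raw counts per feature, 1 column per library. The strand setting of the counting is not given in the sources used here. Symbols were found for 28845 of 32099 Ensembl identifiers.

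Low counts were filtered with filterByExpr, leaving 17804 features, 15309 of them Ensembl genes. TMM gave the scaling factors, and edgeR 4.0.16 (R 4.3.3) was run as a quasi-likelihood test with the replicate number as a block, since the methods describe paired injections. Deviations from the group means correlated within pairs (r = 0.45, 0.33 and 0.24 for pairs 1, 2 and 3). Libraries pool embryos, so p-values do not measure the spread between embryos. They rest on variation left after the replicate block, which the test moderates with that of the other tested features. Standard errors and intervals therefore do not follow each gene's own spread between pairs. The SD of the pair log2 ratios was 0.024 for ext2 and 1.43 for chsy3, with standard errors of 0.14 and 0.45. No libraries of a group were duplicates (lowest chi-square 16.8 times its degrees of freedom). Standard errors came from the F statistic, and pair ratios on the log2 scale from CPM with a prior count of 2. Counts do not correct for gene length, so where counts of different genes are set side by side, they do not rank transcript numbers. The test was also run on counts simulated from mean levels, with no differences between pairs. That run does not bear on the choice of block. Alternatives were no block, the collection day as block, RLE factors, TMM factors from Ensembl genes, DESeq2 1.42.0, other count filters, no fold threshold, a prior count of 0.5, and leaving out pairs or libraries.

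The members and lists were chosen with earlier results of these data known. Named genes were all 9 members, every called gene of the pathway list or else the leading 2 of a sublist by p, and the 5 features most like chsy3. Pathway symbols that matched no row, or more rows than symbols, were left out.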

Additional observations from a re-analysis of the deposited data

Results flagged for a closer look

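In both EXT1 rows pairs 1 and 2, collected on the same day, had higher levels with the FZNF MO. Pair 3, collected later, had a lower level for EXT1 (ENSDARG00000103155) and a nearly equal one for EXT1 (ENSDARG00000101019). The latter had 34 counts with the scrambled MO and 32 with the FZNF MO in pair 3, within counting error, and 33 and 32 counts in pair 2. Reads matching both copies may enter both rows, so the rows may not be independent. The log2 ratio in pair 3 was -0.327 for EXT1 (ENSDARG00000103155), against 0.81 and 0.26 in pairs 1 and 2, and -0.0191 for EXT1 (ENSDARG00000101019), against 0.28 and 0.19. The difference between the collection days was not tested, and the later day holds a single pair.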

How the results depend on the processing

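chsy3 kept its direction in every alternative fit, with log2 fold changes from 3.27 to 4.84 when a pair or library was left out. As chsy3 was picked by these counts and its groups did not overlap, these fits could not have reversed its direction. They are a description and lend it no support. A prior count of 0.5 moved no pair ratio of a member by more than that member's spread between pairs. This did not hold for every gene of the pathway list. For the called gene NDST2 (ENSDARG00000060678) the log2 ratio in pair 3 moved from 2.047 to 2.147, beyond its SD between pairs of 0.092. Members called higher ranged from 0 to 1 when a library or pair was left out (0 only without scrambled MO replicate 2 in the fit with no replicate block), and 0 were called lower in every setting. For the pathway list, the fit with no replicate block and that with the collection day as block called 0 higher and 0 lower. DESeq2 and the fit with no filter on low counts each called 5 higher. Leaving out a pair or library gave 0 to 6 higher and 0 to 4 lower. Over all Ensembl genes, 365 higher and 349 lower in the main setting became 34 and 23 with no replicate block, 29 and 17 with the collection day as block, and 806 and 702 with no filter, and leaving out a pair or library gave 8 to 1024 higher and 3 to 820 lower. All 6 called pathway genes remained called with RLE factors, TMM factors from Ensembl genes, DESeq2, no filter and a minimum of 50 counts in 3 libraries.

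CHPF (ENSDARG00000078392) was called with DESeq2, with no filter (adjusted p = 0.00324 from edgeR) and without replicate 3 (adjusted p = 0.00543 from edgeR). Over the fits that left out a pair or library, log2 fold changes ran from -0.027 to 0.43 for chsy1, -0.20 to 0.99 for xylt1, -0.13 to 0.41 for EXT1 (ENSDARG00000101019), -0.031 to 0.55 for EXT1 (ENSDARG00000103155) and -0.52 to 0.020 for HYAL2 (ENSDARG00000062997), each changing sign. The cause was not tested. Fits that drop a single library leave its partner unpaired. At 17 to 51 control counts for chsy3, counting error limits the size of its ratios.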
